A study of Saccharomyces cerevisiae with 68 samples.

Results

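The cytosolic ribosomal protein genes of Saccharomyces cerevisiae were followed through a heat shock in 5 strains and compared between strains at 25 °C. They were taken from the value table by reading frame: a frame counted if the R64 annotation names it RPL or RPS with a number and an optional A or B, or RPP0, RPP1A, RPP1B, RPP2A or RPP2B. This gave 137 of the 6297 rows. Of these, 81 genes encode proteins of the large subunit and 56 of the small subunit. The A and B copies of a duplicated gene made up 59 pairs, or 118 genes, and the other 19 genes had 1 copy.

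Each ribosome takes up roughly equal numbers of nearly all its proteins, and in yeast most of these proteins are encoded by a pair of duplicated genes with nearly the same product. Transcription of the genes takes up a large share of RNA polymerase II activity in growing cells and is set by Rap1, Fhl1, Ifh1 and Sfp1, which answer to nutrient signals from the TOR and protein kinase A pathways. A general fall in these transcripts is a known feature of the yeast stress response.

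The series recorded RNA of 5 strains on 68 2-colour arrays. DBY8268 stands for the laboratory S288c background, and K9, M22, RM11-1a and YPS163 are strains from outside the laboratory. All cells grew in log phase in the rich medium YPD at 25 °C, and prewarmed medium then brought each heat-shocked culture to 37 °C. The 60 time-course arrays set RNA taken 5, 15, 30, 45, 60 or 120 min after the shift against RNA of the same strain at 25 °C, with 2 arrays for each strain and time. The other 8 arrays set K9, M22, RM11-1a and YPS163 at 25 °C against DBY8268 at 25 °C, with 2 arrays each and no heat shock. The 6 arrays of a strain with the same replicate number are called a series below, and there are 10 series. Values are log2 ratios, so that −1 is a halving if the deposited logarithm is base 2, which the sources do not state. In RNA from whole cultures, fewer cells of a type and less RNA per cell cannot be told apart, and a ratio gives no absolute amount.

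Each array held values for 126 to 137 of the ribosomal protein genes, and 97 genes had a value on all 68 arrays. In 4 strains the dyes were swapped between the series, and in K9 both series had the heat-shocked RNA in Oyster 650. In the fit over the 60 arrays, ribosomal protein genes read a median of 0.30 higher with the heat-shocked RNA in Oyster 650. In this term 69 of 135 genes were called higher (limma, Benjamini-Hochberg adjusted p under 0.05), against 3.69% of all genes. The sign was not the same in every strain and time. In DBY8268, replicate 2 minus replicate 1, which was in Oyster 650, was −0.085 and −0.445 in the set median at 5 and 15 min. At 30, 45, 60 and 120 min it was 0.28, 0.2, 0.015 and 0.13. In M22 and RM11-1a it was positive at 30 min only, at 0.02 and 0.23. Given the 69 calls, a dye term was kept in the main fits, although dye and series cannot be told apart in 4 strains. The K9 time courses had no dye swap. Their fitted levels and comparisons thus carry a dye term estimated from the other 4 strains. The YPS163 series stand apart: replicate 2 read below replicate 1 by 0.515 to 1.39 in the median of these genes at all 6 times, while the medians of all genes differed by 0.04 to 0.26 the other way. The dye term is given only from the fit that includes YPS163, so how far it rests on that strain was not tested. Other results that rest on YPS163 are given with and without its series.

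Nearly the whole set fell within minutes. On the fitted mean of the 5 strains, 131 of 135 genes tested were lowest at 15 min. Within strains, 36 of the 135 were lowest at 30 min in K9, 18 in M22 and 6 or fewer in the others. The median ribosomal protein gene on an array ranged over the 10 arrays from −1.19 to 0.155 at 5 min, with a middle value of −0.525. At 15 min it ranged from −3.295 to −1.31, with a middle value of −2.55. The groups do not overlap: each array at 15 min was below each array at 5 min. At 30 min the array medians lay between −2.54 and −0.86, at 45 min between −1.38 and −0.245, at 60 min between −1.095 and 0.11, and at 120 min between −0.76 and −0.08. The median of all genes stayed between −0.17 and 0.28 on these arrays.

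**Figure D1:**
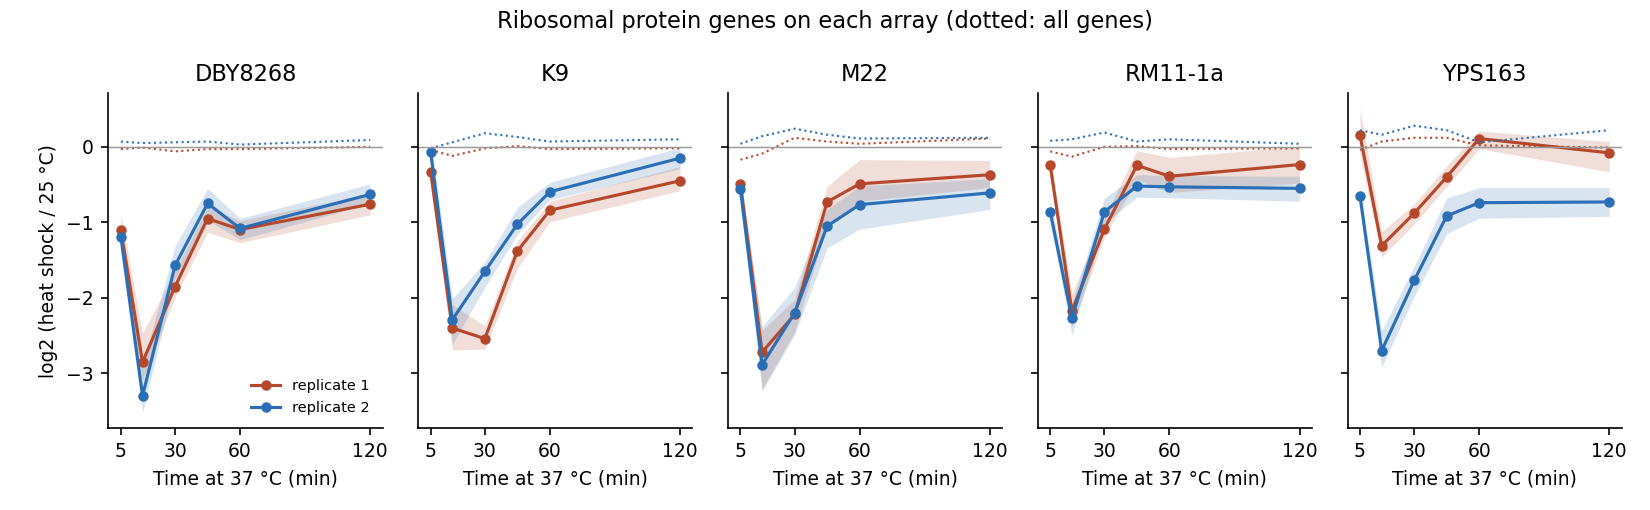
Median of the ribosomal protein genes on each array (points and lines), with the band from the lower to the upper quartile, against time at 37 °C in minutes, one panel per strain and one colour per series. Dotted lines are the median of all genes, which stayed near 0 while the ribosomal protein genes dropped to between −3.295 and −1.31 at 15 min; in YPS163 the series lie apart.

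In the fit over all arrays, 135 genes could be tested, having a value for every strain at every time. On the mean of the 5 strains, 125 of them were lower than at 25 °C at 5 min, when 36.2% of all 4360 genes tested were lower. At 15 min all 135 were lower, against 39.9% of all genes, with a median of −2.54, which is 5.81-fold on base 2. At 30 min 134 were lower against 26.8%, and at 45 min 134 were lower against 20.4%. At 60 min 132 were lower against 22.6%, and at 120 min 127 were lower against 20.9%, with a median of −0.49. No ribosomal protein gene was called higher on this mean at any of the 6 times. Genes of the set shift together on an array, so these counts are not counts of independent events. The other 2 genes lacked a value in some groups and were not tested. Of these, RPS17B of the small subunit had 8 values at 15 min, from −3.81 to −2.15.

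The fall from 5 to 15 min was called in 134 of 135 genes, against 22.4% of all genes, with a median of −1.94. From 15 to 30 min 117 genes rose, against 31.7% of all genes, with a median of 0.82, and RPL41B fell further, by 0.38. In both series of K9, RM11-1a and YPS163 and in M22 replicate 2, the array code at 15 min has another prefix than at 5 and 30 min. What the prefix stands for is not stated. Within these series, time and prefix cannot be told apart in the changes to and from 15 min. From 30 to 60 min 132 rose, against 14.6%, with a median of 1.03. Between 60 and 120 min the median difference was 0.19 and no gene was called, against 2.41% of all genes. Of the 135 genes 12 passed an unadjusted p of 0.05 there. With the series as a random replicate block, 3 genes were called from 60 to 120 min. By these tests the set was still below its 25 °C level at the last time, by a median of 1.40-fold.

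Large and small subunit genes fell by nearly the same amount. The median of the large subunit genes minus that of the small subunit genes on an array ranged from −0.115 to 0.19 over the 60 time-course arrays, with a middle value of 0. It was below 0 on 27 arrays and above 0 on 29. At 15 min, the fitted medians were −2.51 for 81 large subunit genes and −2.54 for 54 small subunit genes. At 25 °C the difference lay between −0.115 and 0.14 on the 8 arrays.

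Most genes lay close to each other at 15 min: the quartiles of their means were −2.76 and −2.22, and 19 genes lay more than 0.5 from the median. The lowest was RPL27B, a large subunit gene, with array values from −4.37 to −1.93, a median of −3.175 and a fitted mean of −3.26 (SE 0.13, adjusted p = 1.55e-22, limma), or 9.58-fold. Next came RPL20B at −3.13 (SE 0.11), RPS0B at −3.12 (SE 0.08), RPL26B at −3.08 (SE 0.10), RPL20A at −3.05 (SE 0.12) and RPS0A at −3.02 (SE 0.10). RPS0A and RPS0B encode a protein needed for maturation of the small subunit. Neighbours in this order differ by less than their standard errors, apart from the step after RPL27B, which is of the size of its error.

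**Figure D2:**
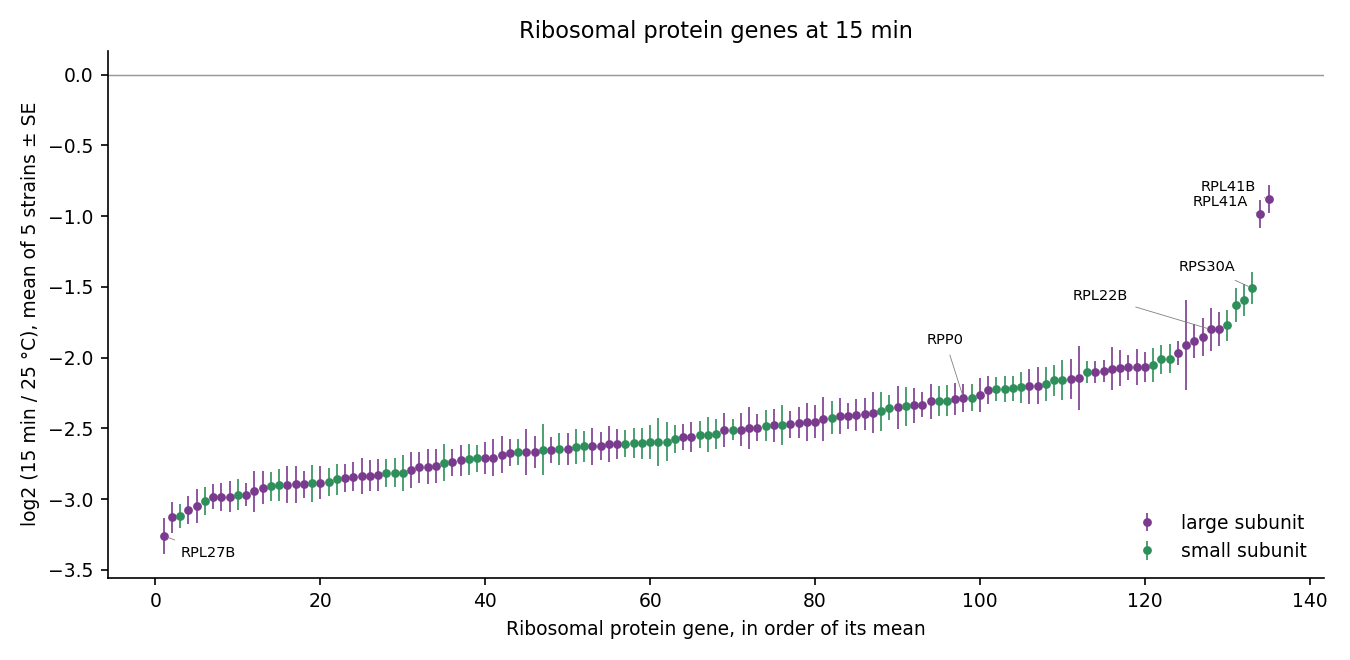
Log2 ratio of each of 135 ribosomal protein genes at 15 min against 25 °C, mean of 5 strains with its standard error, in order of the mean and coloured by subunit. Large and small subunit genes are mixed along the order, and RPL41A and RPL41B stand at the high end at −0.98 and −0.88.

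The shallowest fall was that of RPL41A and RPL41B, which encode an identical, very short protein of the large subunit. RPL41B had array values from −2.02 to −0.02 at 15 min with a median of −0.68, and RPL41A from −2.10 to 0.14 with a median of −0.845. Fitted means were −0.88 (SE 0.10, adjusted p = 9.92e-10, limma) and −0.98 (SE 0.10, adjusted p = 6.05e-11). The values differed between the dyes. RPL41B lay between −0.73 and −0.02 on the 6 arrays with the heat-shocked RNA in Oyster 650. On the 4 arrays in Oyster 550 it lay between −2.02 and −0.87, without overlap. RPL41A lay between −1.06 and 0.14 in Oyster 650 and between −2.10 and −0.84 in Oyster 550, with overlap. Dye and series cannot be told apart in 4 strains. The dye term of these genes was 0.81 for RPL41B and 0.79 for RPL41A, the largest in the set. Copies this alike may share cDNA on an array, so the pair may not be separate measurements.

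Small subunit genes came next at the shallow end. RPS30A and RPS30B, which encode a small protein of the small subunit, reached −1.51 (SE 0.11) and −1.63 (SE 0.12). RPS20 reached −1.59 (SE 0.11) and RPS26A −1.77 (SE 0.11). The large subunit gene RPL22B lay close to RPS26A, at −1.80. At 5 min RPS30A, RPS30B and RPS20 were among the 10 genes not called lower, with RPL41A, RPL41B, RPL29, RPL31A, RPL39, RPS12 and RPP2A. At 120 min the 8 genes not called lower were RPL9B, RPL22B, RPL29, RPL37B, RPL39, RPL43B, RPS14B and RPS29A.

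RPL22B ran ahead of the rest. Its paralogue RPL22A and RPL22B encode a large subunit protein that is not essential for growth, and the RPL22B transcript carries an intron to which the protein binds. At 5 min the array values of RPL22B ran from −4.16 to −1.23 with a median of −2.815, and all 10 were lower than those of RPL22A on the same array, whose values ran from −1.20 to 0.48. The fitted mean was −2.71 (SE 0.15, adjusted p = 2.68e-17, limma), or 6.54-fold, against −0.55 (SE 0.13) for RPL22A. It was then −1.80 (SE 0.15) at 15 min, −0.26 (SE 0.15, adjusted p = 0.137) at 30 min and 0.19 (SE 0.15) at 45 min. RPL22B was the one gene with its lowest mean at 5 min, on the mean of the strains and in each of them. From 5 to 15 min it rose by 0.91 while the other 134 genes fell.

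**Figure D3:**
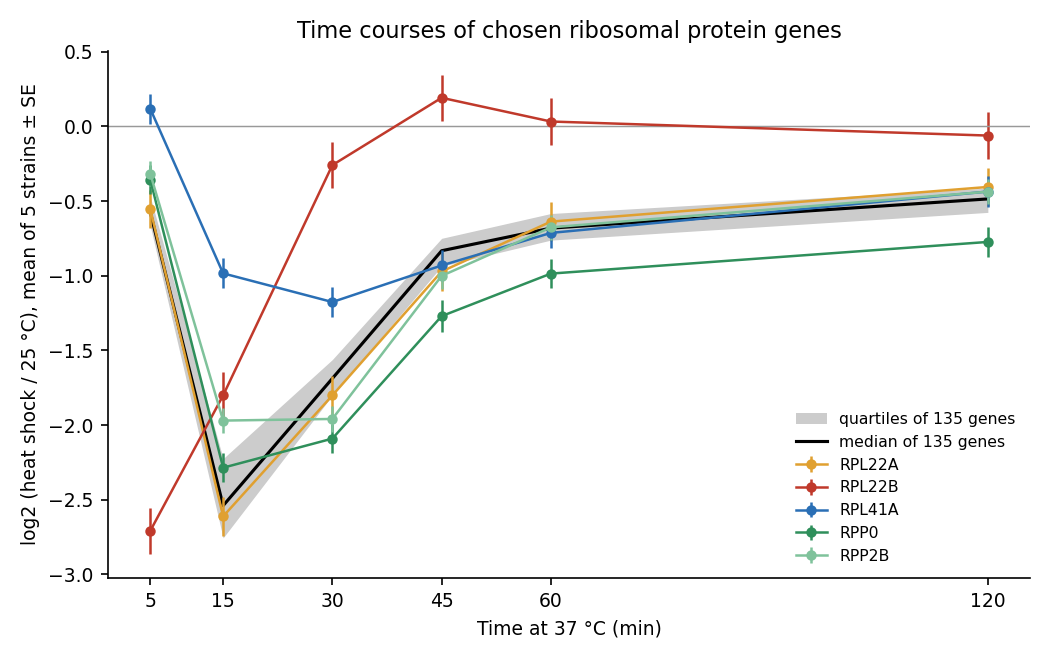
Log2 ratio against 25 °C for 5 named genes over time at 37 °C in minutes, mean of 5 strains with standard errors, beside the median and the range between the quartiles (gray) of 135 ribosomal protein genes. RPL22B was lowest at 5 min at −2.71, RPL41A fell least at 15 min, and RPP0 and RPP2B stayed down at 30 min.

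The strains differed in this early fall (F test over strains at 5 min, adjusted p = 0.00428, limma). At 5 min RPL22B was at −4.16 and −2.54 in DBY8268, −3.38 and −2.66 in K9, −3.51 and −3.88 in M22, −1.35 and −1.23 in RM11-1a, and −1.34 and −2.97 in YPS163. Both arrays of RM11-1a were higher than the arrays of DBY8268, K9 and M22, and the YPS163 arrays spanned the gap. At 45 min RM11-1a had RPL22B at 1.46 and 0.68, and its mean of 1.07 was called higher (adjusted p = 0.0298, limma), a call lost with the array code prefix as a covariate and without either series of M22 or of RM11-1a. In YPS163 at 5 min RPL41B was the gene called higher, at 1.25 and −0.12 on its arrays. That call had an adjusted p of 0.04997. It was lost in every alternative fit but that on genes with a value on all 60 arrays, and without either YPS163 series.

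On the mean of the 5 strains the stalk genes showed little rise from 15 to 30 min, but strains went opposite ways. RPP0 encodes the base of the stalk of the large subunit, through which elongation factors are recruited, and RPP1A, RPP1B, RPP2A and RPP2B encode the acidic proteins attached to it. At 15 min their means were −2.29 for RPP0, −2.10 for RPP1A, −2.07 for RPP1B, −1.91 for RPP2A and −1.97 for RPP2B. From 15 to 30 min none of the 5 was called changed, with values from 0.01 to 0.24, where 12 of the other 130 genes were not called. Within a series the median change of the stalk genes ran from −0.54 to 0.89, and it was below that of the other ribosomal protein genes, which ran from −0.16 to 1.73, in 10 of 10 series. The stalk median rose in DBY8268 (0.54 and 0.85), RM11-1a (0.79 and 0.89) and YPS163 replicate 2 (0.49). In both series of K9 and of M22 and in YPS163 replicate 1 it fell, with changes from −0.54 to −0.14. The array code prefix was the same at 15 and 30 min only in DBY8268 and in M22 replicate 1. In the other series, time and prefix cannot be told apart. RPP0 kept a mean of −2.09 (SE 0.10) at 30 min, −1.27 (SE 0.11) at 45 min and −0.77 (SE 0.10) at 120 min. RPP2A is the noisiest of these genes, with array values from −3.93 to 0.61 at 45 min.

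The ubiquitin fusion genes encode ubiquitin joined to a ribosomal protein. RPL40A and RPL40B reached −2.34 (SE 0.12) and −2.50 (SE 0.10) at 15 min and rose by 0.68 and 0.63 to 30 min. RPS31 reached −2.22 (SE 0.09) and its change of 0.27 to 30 min was not called (adjusted p = 0.0726). The single-copy genes RPL3, RPL5, RPL10 and RPS3 had means of −2.20, −2.23, −2.09 and −2.81 at 15 min, all called lower. RPL5 binds 5S ribosomal RNA and RPL10 is added last to the large subunit.

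Among the duplicated genes, copies A and B differed little. The absolute mean difference of B minus A at 15 min had a median of 0.08 over the 59 pairs, and 53 pairs were under 0.25. Across the time-course arrays the copies correlated with a median r of 0.956, a description over up to 60 arrays that share strain and time. Copies of near-identical sequence may have been read by shared cDNA, so likeness of a pair is uncertain. An exact two-sided sign-flip permutation test over 8 to 10 arrays gave an unadjusted p under 0.05 in 10 of 59 pairs, which is 16.9%, with B higher in 4 and lower in 6. The arrays are pairs from 5 strains and so not independent. Over 5 strain means such an exact permutation test cannot go below p = 0.0625, so no pair could pass, and 8 pairs had the same sign in all 5 strains.

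RPL22 differed most, by 0.775 ± 0.898 (SD, n = 10 arrays, exact permutation p = 0.0332), with B higher on 6 and lower on 4. DBY8268 had B above A by 1.61 and 1.97, K9 by −0.03 and 1.40, M22 by −0.37 and −0.26, RM11-1a by 1.05 and 1.72 and YPS163 by −0.09 and 0.75. At 5 min B was lower on 10 of 10 arrays, by −2.19 ± 1.07, and at 30 min it was higher on 10 of 10, by 1.51 ± 0.547. At 15 min B was the higher on both arrays of DBY8268 and RM11-1a and the lower on both arrays of M22, and the sign differed between the arrays of K9 and of YPS163.

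RPS26B, of a protein at the mRNA exit of the small subunit, was lower than RPS26A on 10 of 10 arrays at 15 min, by −0.52 ± 0.386 (SD, exact permutation p = 0.00195, the smallest that 10 arrays allow). Without the far array, replicate 2 of M22 at −1.49, the values ran from −0.81 to −0.14. RPS26B was also lower on all 10 arrays at 5, 60 and 120 min. RPL27 had B minus A at −0.40 ± 0.697 (exact p = 0.0742), with 2 low arrays, −2.01 in M22 and −1.18 in K9. RPS21 was at 0.30 ± 0.327 (exact p = 0.0195), RPL31 at −0.285 ± 0.265 (exact p = 0.0156, n = 8 arrays) and RPS16 at −0.27 ± 0.267 (exact p = 0.0078). The pairs RPL23 and RPS6 differed least, with means of −0.01 and −0.003. RPS27 was singled out after its values were seen: B was higher on 9 of 9 arrays at 5 min, by 0.53, and lower on 10 of 10 at 30 min, by −0.515.

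**Figure D4:**
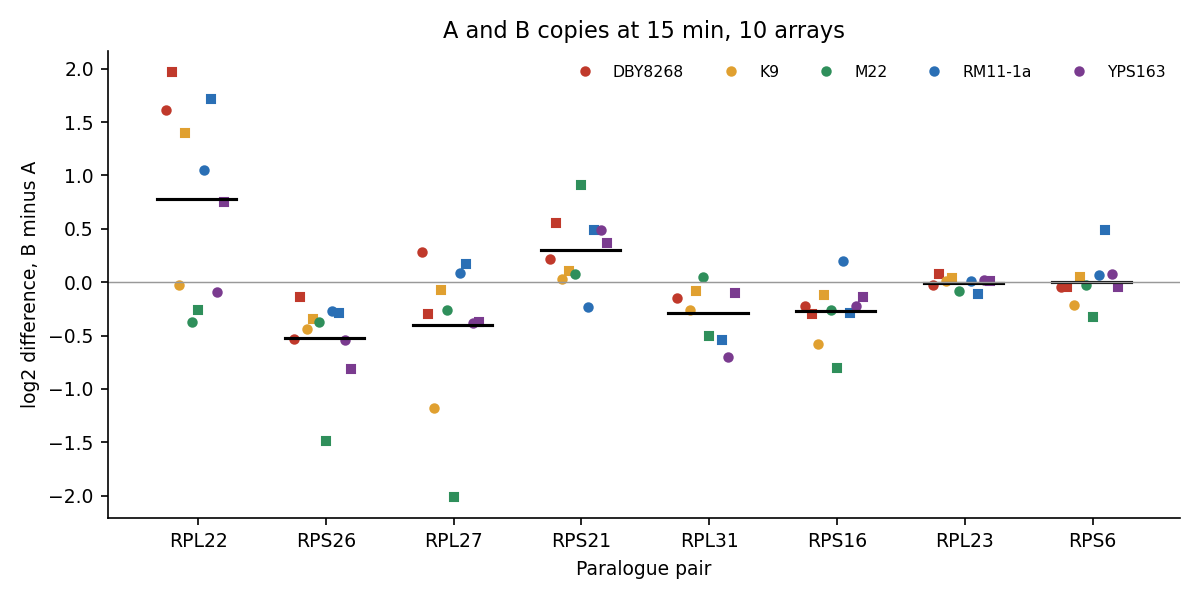
Log2 value of copy B minus copy A at 15 min on each of 8 to 10 arrays for the 6 pairs with the largest and the 2 with the smallest mean, coloured by strain, circles for replicate 1 and squares for replicate 2, with the mean as a black line. RPS26 lies below 0 on all 10 arrays, and RPL22 lies above 0 in DBY8268 and RM11-1a and below 0 in M22.

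In the main fit strains differed in the level of the set, most often at 15 and 30 min. At 15 min the fitted median of the set was −3.07 in DBY8268, −2.81 in M22, −2.52 in K9, −2.23 in RM11-1a and −2.02 in YPS163. The K9 value carries the dye term of the other strains and lies below both K9 array medians, −2.40 and −2.29. The F test over the 5 strains called 58 genes at 15 min, where 25.4% of all genes were called, and 109 at 30 min, against 36.9%. It called 6 genes at 5 min, against 8.44% of all genes, then 25 at 45 min, against 22%, and 13 at 60 min, against 24%. At 120 min it called none, against 17.5%. The shares of the set were thus above the share of all genes at 15 and 30 min and below it at the other times. At 30 min this turned with arrays of a time scaled to one spread, when 4 of the 135 genes were called against 24.8% of all genes. At 120 min 1 gene passed an unadjusted p of 0.05. The test of a strain difference in the change from 15 to 30 min, added after results were seen, called no gene against 0.986% of all genes, with 43 genes at an unadjusted p under 0.05 and 24 called with the series as a random replicate block. Without YPS163 replicate 1 it called 16 genes, and without YPS163 replicate 2 it called 22.

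These counts rest on a spread shared between times. With each time fitted alone, 0 genes were called at 15 min and 3 at 30 min. The share of all genes was not counted in those fits, so they do not compare the set with all genes. Without the 3 arrays whose label names another 25 °C reference, 55 were called at 30 min.

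At 15 min the smallest F test p was that of RPL1A, which encodes a protein of the L1 stalk, with an adjusted p of 7.79e-05. Its values were −3.39 and −3.71 in DBY8268, −2.43 and −2.66 in K9, −3.92 and −3.94 in M22, −2.75 and −2.61 in RM11-1a, and −1.43 and −2.88 in YPS163. M22 and DBY8268 lay lowest, without overlap with the other strains. RPS0B, RPL16B and RPS0A followed, with adjusted p of 0.000105, 0.000157 and 0.000338. At 30 min the smallest were RPS0B, RPS22A, RPS21A and RPP1A. RPS0B was at −2.85 and −2.95 in M22, −2.58 and −1.84 in K9, −1.64 and −1.72 in DBY8268, −1.16 and −1.65 in YPS163, and −1.18 and −1.01 in RM11-1a. M22 lay below each array of the other strains.

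Against the mean of the other 4 strains at 15 min, DBY8268 was lower in 23 genes, where 8.42% of all genes were lower. RPL13B, of the large subunit, was at −3.89 and −3.88 in DBY8268, below each array of the other strains, a difference of −1.47 (SE 0.33, adjusted p = 0.00383, limma). RPS2, which lies at the mRNA entry of the small subunit, was at −4.02 and −4.03, again the lowest arrays, a difference of −1.32 (SE 0.28, adjusted p = 0.00219). M22 was lower in 25 genes, against 6.49% of all genes. RPL22B was at −3.27 and −3.08 there, below each other array, a difference of −1.72 (SE 0.38, adjusted p = 0.00218). RPS27A was at −3.60 and −3.81, a difference of −1.23 (SE 0.27, adjusted p = 0.00184). With arrays scaled to one spread, DBY8268 had 122 called and M22 none. The share of all genes in this comparison was not counted for this or any other alternative fit. Those counts therefore show only that the calls depend on the fit. Without DBY8268 replicate 1, 0 genes were called in DBY8268, and without its replicate 2 there were 2. In M22, 2 were called without its replicate 2. The call for RPL13B was lost without DBY8268 replicate 1, and those for RPL22B and RPS27A without either M22 series. Scaling also ended the calls for RPL22B and RPS27A.

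YPS163 was higher in 21 genes, against 4.77% of all genes. RPL16B was at −1.23 and −2.56, a difference of 1.19 (SE 0.25, adjusted p = 0.00349), and RPS27B at −1.31 and −2.66, a difference of 1.15 (SE 0.29, adjusted p = 0.0154). In both genes replicate 1 lies above each other array and replicate 2 among them, and both calls were lost without replicate 1. Without YPS163 replicate 1 no gene was called, and without replicate 2 there were 94. In K9 2 genes were called, against 3.78% of all genes: RPL2B was higher, at −2.19 and −1.61, and RPL15B lower, at −3.22 and −2.91. Each call was lost in 6 of the 10 fits that leave out a series, either K9 series among them, and the count ran from 0 to 10. In RM11-1a no gene was called, against 3.6% of all genes, and 23 passed an unadjusted p of 0.05.

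The level at 30 min was compared in the same way, as a comparison added after results were seen. This level also carries the depth reached at 15 min, so it does not measure recovery alone. RM11-1a was higher in 77 genes, against 5.83% of all genes, with a median difference of 0.90. M22 was lower in 56, against 6.42%, with a median of −0.67, and K9 was lower in 24, against 3.69%, with a median of −0.72. The fitted strain medians at 30 min were −0.96 in RM11-1a, −1.34 in YPS163, −1.73 in DBY8268, −2.19 in M22 and −2.25 in K9. Which of M22 and K9 was lower is not settled. The array medians were −2.54 and −1.65 in K9, on either side of −2.22 and −2.20 in M22, and the K9 fit carries the dye term of the other strains. Without the 3 arrays with another reference label, which include 30 min arrays of M22 and RM11-1a, the counts were 0 in RM11-1a, 22 in M22 and 5 in K9. With arrays of a time scaled to one spread they were 2, 0 and 0. The share of all genes in these comparisons was not counted for any alternative fit. The counts also rest on single series: RM11-1a had 0 without its replicate 2 and 121 without YPS163 replicate 1. M22 had 11 without its replicate 1, and K9 had 0 without its replicate 1 and 63 without YPS163 replicate 2. K9 replicate 1 went on falling, with a median change of −0.16 from 15 to 30 min, while the median of the other 9 series changed by 0.415 to 1.72. Its arrays at 15 and 30 min differ in array code prefix, so time and prefix cannot be told apart in this change.

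At 5 min 128 genes were lower in DBY8268, against 26.1% of all genes, 49 in M22 against 25.2%, 45 in RM11-1a against 18.1%, 20 in K9 against 17.5% and 11 in YPS163 against 14.3%. The shares of the set in K9 and YPS163 were 14.8% and 8.15%, below those of all genes. The fitted medians were −1.16, −0.52, −0.55, −0.35 and −0.25 in the same order. The K9 value again lies below both K9 array medians, −0.33 and −0.07. Without DBY8268 replicate 1, 65 genes were lower in that strain, and without YPS163 replicate 1, 36 were lower in YPS163. Without YPS163 replicate 2, 6 were lower there.

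At 25 °C the set lay near the level of DBY8268 in K9, M22 and RM11-1a, with fitted medians of 0.055, 0.005 and −0.19, and above it in YPS163, at 0.43. The array medians were 0.375 and −0.28 in K9, 0.22 and −0.20 in M22, −0.085 and −0.27 in RM11-1a, and 0.755 and 0.07 in YPS163. In each strain replicate 1, with the strain's RNA in Oyster 650, was the higher. The dye term had a median of 0.46 over the set and −0.02 over all genes, with no gene of the set called and 75 at an unadjusted p under 0.05. RPL3, RPL20B, RPL33B, RPS7A, RPS10A, RPS28A and RPS30B, whose frames all have names that begin with YOR, were not tested for want of values, which left 130 genes.

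Against DBY8268, no gene of the set was called in K9, where 13.9% of all genes were called, or in RM11-1a, where 14.4% were. Unadjusted p under 0.05 was reached by 3 genes in K9 and 4 in RM11-1a. In M22 3 genes were higher, against 10.2% of all genes: RPS9A at 0.74 and 0.99, RPL16B at 0.89 and 0.81, and RPS28B at 0.69 and 0.70. None was called in M22 without either of its arrays. In YPS163 23 genes were higher, against 7.99%, and RPP2A was lower. RPL39 was at 1.30 and 0.62 there, a mean of 0.96 (SE 0.14, adjusted p = 0.00381, limma). Without the dye term, which is the same as the replicate block here, 2 genes were called in YPS163 in either direction, and 8 on the mean of the 4 strains. Without YPS163 replicate 1 no gene was called in YPS163, and without replicate 2 there were 2. The call for RPL39 was lost in all 3 of these fits.

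RPP2A was the lowest gene at 25 °C, at −2.61 and −3.38 in YPS163, a mean of −2.995 (SE 0.73, adjusted p = 0.0293, limma). In the other strains it was at −0.73 and 0.46 in K9, −0.02 and −2.22 in M22, and −2.06 and 0.82 in RM11-1a. Both YPS163 arrays were below every array of the other strains, whose own replicates lay 1.19 to 2.88 apart. The YPS163 call was lost without either of its arrays. On the mean of the 4 strains 14 genes were higher, against 18.7% of all genes. RPL16B was the highest at 0.51 (SE 0.08), then RPL2A at 0.415 (SE 0.07) and RPS9A at 0.365 (SE 0.10). RPP2A was the lowest at −1.22 (SE 0.37, adjusted p = 0.0347), a call lost in 4 of the 8 fits that leave out an array, with −0.78 without RM11-1a replicate 1 and −0.805 without M22 replicate 2. The call for RPS9A was lost in 5 of these 8 fits, while RPL15B at −0.32 and RPL35B at −0.27 were not called.

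**Figure D5:**
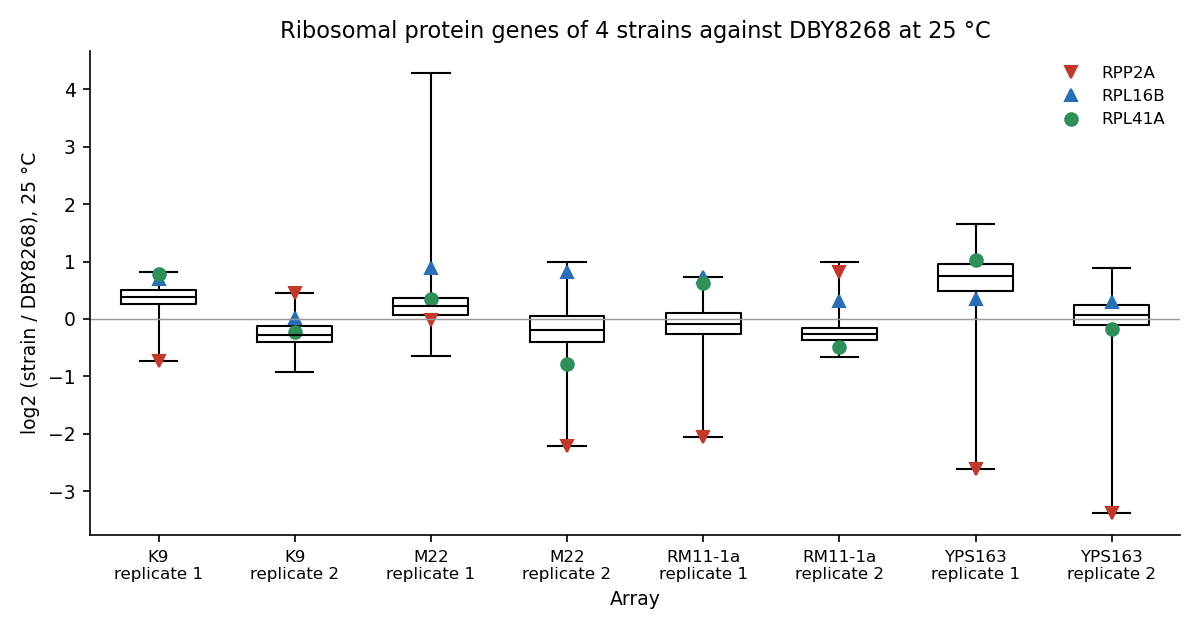
Log2 ratio of a strain to DBY8268 at 25 °C for the ribosomal protein genes on each of 8 arrays. Boxes span the quartiles with the median, whiskers reach the lowest and highest gene, and markers show RPP2A, RPL16B and RPL41A; in each strain the box of replicate 1 lies above that of replicate 2, and RPP2A lies at −2.61 and −3.38 in YPS163.

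Genes around the ribosome were counted from lists chosen with earlier results known. At 15 min 39.9% of all genes were lower and 38.1% higher. Of 11 regulators of ribosomal protein genes or other ribosome synthesis genes, 10 were tested: 5 were lower, a share near that of all genes, and 2 were higher. TOD6, a repressor of ribosome synthesis genes, was lowest at −1.43 (SE 0.25) and RAP1 was next at −0.75 (SE 0.08). STB3, another repressor, was highest at 0.97 (SE 0.10) and DOT6, the paralogue of TOD6, was at 0.24 (SE 0.08). Of 8 dedicated chaperones, which escort single ribosomal proteins, 7 were tested and all 7 were lower at 15 min. SYO1, which carries Rpl5 and Rpl11 into the nucleus, was at −2.78 (SE 0.09) and BCP1, a chaperone of Rpl23, at −2.35 (SE 0.11). Of 16 elongation factor and ribosome-associated genes, 14 were lower. SSB1 and SSB2, chaperones at the exit of the ribosome, were at −3.18 (SE 0.08) and −2.98 (SE 0.10), while CAM1 at −0.23 and EFB1 at −0.13 were not called. At 120 min, when 20.9% of all genes were lower, 3 chaperones were lower. Of the elongation list 13 were, 12 of them also lower at 15 min, and EFB1 at −0.54 was the other.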

How the data were processed

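Values are the log ratios that the authors deposited, read here as log2, with 1 value per reading frame and array and gaps where a spot had none. Log base, normalization and centring are not given in the sources used here. Folds therefore assume base 2. The sign at 25 °C was checked on ASP3-1, which lay between −6.80 and −4.71 in strains other than DBY8268. Symbols came from RefSeq's annotation of assembly R64, to which 5832 of 6297 rows matched.

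Per-gene linear models, moderated by limma 3.58.1 with statmod 1.5.0 in R 4.3.3, held 30 means of strain and time plus a dye effect for the 60 time-course arrays. For the 8 arrays at 25 °C they held 4 strain means plus a dye effect. A gene needed a value in every mean, and at 25 °C on 6 of 8 arrays, which left 4360 and 5306 genes. Benjamini-Hochberg adjustment covered all of these, with a threshold of 0.05. Precision is limited by the number of arrays, and the median moderated SD for 1 array came to 0.294 over the time courses and to 0.245 for 25 °C. The code was tested on simulated data. Whether replicates were grown separately is not stated, so a p-value may reflect technical spread alone.

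Named genes are the 6 lowest and 6 highest at 15 min, those not called or not tested, the smallest p of the F tests, the largest differences per strain, the stalk, ubiquitin fusion and 4 single-copy genes, and the pairs of largest and smallest difference. Members and lists were chosen with earlier results of these data known. Arrays of a series deviated together over the times, with a lowest correlation of 0.0379 and strain medians of 0.296 to 0.529, so the series was also fitted as a random replicate block. Other alternatives were centring, scaling, no dye term, the array code prefix as a covariate, complete genes, each time alone, and leaving out the arrays with another reference label, a technical repeat or each series. The F test of the change from 15 to 30 min, the strain comparisons at 30 min and the counts per strain at 5 min were added after results were seen. Values of 1 paralogue pair are not reported here, though it is part of the counts.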

Additional observations from a re-analysis of the deposited data

Results flagged for a closer look

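Strain differences within the set were found at 5 times by the F test, with 6 genes called at 5 min and 58 at 15 min. The count was 109 at 30 min, 25 at 45 min and 13 at 60 min. At 5, 45 and 60 min the shares of the set, 4.44%, 18.5% and 9.63%, were below those of all genes, 8.44%, 22% and 24%. At 15 and 30 min they were above, 43% against 25.4% and 80.7% against 36.9%. At 15 min the smallest adjusted p were 7.79e-05 for RPL1A, 0.000105 for RPS0B, 0.000157 for RPL16B and 0.000338 for RPS0A. At 30 min they were 1.29e-05 for RPS0B, 4.67e-05 for RPS22A, 7.06e-05 for RPS21A and 7.94e-05 for RPP1A. The counts move with the fit and with single series, as given below.

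Of 15 sets of 8 to 10 arrays examined for 1 array far from the others, 2 had one, and chance flags about 1 in 20. In the B minus A differences at 15 min, replicate 2 of M22 lay far below the others for RPS26 at −1.49. Replicate 2 of RM11-1a lay far above the others for RPS6 at 0.49.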

How the results depend on the processing

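Counts on the mean of the 5 strains moved by less than 1.5 times under every alternative run, apart from 60 to 120 min, and no called single-gene value changed sign. The set's share of F test calls at 30 min against that of all genes turned under scaling, as given above, and RPL22B at 120 min, not called at −0.06, ran from −0.17 to 0.02 with 1 series left out. Counts of strain differences were far less stable, and the causes were not tested beyond what each alternative leaves out. For the alternatives, the share of all genes called was counted only for the F test at 15, 30 and 120 min. It was not counted with each time fitted alone. The other counts below show how far the calls move, not how the set compares with all genes.

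Centring arrays on their median gave 42 F test calls at 45 min, and against the other strains at 15 min 1 in RM11-1a and 11 in YPS163. At 25 °C it gave 1 in K9, 1 in RM11-1a, 43 in YPS163 and 25 on the mean. Scaling gave 105 F test calls at 15 min, against 23.8% of all genes, 4 at 30 min, against 24.8%, and 11 at 45 min. It gave 122 in DBY8268, 1 in K9 and 0 in M22 against the other strains at 15 min. At 25 °C scaling gave 1 in K9, 1 in M22 and 13 in YPS163. No dye term gave 5 F test calls at 45 min and 3 at 60 min, and 11 in DBY8268, 1 in K9 and 9 in YPS163. The array code prefix gave 3 F test calls at 5 min, 7 at 45 min and 6 at 60 min, and 1 in DBY8268, 0 in K9, 11 in M22 and 2 in YPS163. Complete genes gave 10 F test calls at 5 min, 1 in K9 at 15 min and 1 in K9 at 25 °C. Leaving out the arrays with another reference label gave 55 F test calls at 30 min, and leaving out the technical repeat gave 1 in K9. Each time fitted alone gave 0 F test calls at 5, 15 and 45 min, 3 at 30 min and 7 at 60 min, where unadjusted p under 0.05 was reached by 44, 46, 60, 66 and 68 genes in that order. It gave 0 in DBY8268, K9, M22 and YPS163 at 15 min, and no value for changes between times.

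With the series as a random replicate block, 10 F test calls were made at 5 min, 1 in K9 at 15 min and 3 from 60 to 120 min, and no other count moved by 1.5 times apart from the change from 15 to 30 min, given above. At 25 °C the fit with no replicate block gave 1 in RM11-1a, 2 in YPS163 and 8 on the mean.

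Leaving out each series in turn gave 109 to 131 genes lower at 5 min, 124 to 135 at 15 min, 123 to 134 at 30 min, 122 to 133 at 45 min, 122 to 132 at 60 min and 106 to 128 at 120 min. It gave 108 to 119 changed from 15 to 30 min and 0 to 2 from 60 to 120 min. Fewer genes could be tested in these fits. The smallest counts of lower genes from 15 to 120 min came without DBY8268 replicate 1, where 124 genes were tested. The smallest at 5 min came without YPS163 replicate 2, where 125 were tested. F test calls ran from 1 to 71 at 5 min, 25 to 104 at 15 min, 65 to 122 at 30 min, 7 to 59 at 45 min, 0 to 70 at 60 min and 0 to 1 at 120 min. The highest of these at 5, 15, 45 and 60 min came without YPS163 replicate 2. Against the other strains at 15 min DBY8268 had 0 to 91, K9 had 0 to 10, M22 had 2 to 51, RM11-1a had 0 to 17 and YPS163 had 0 to 94. At 25 °C K9 had 0 to 1, M22 had 0 to 6, RM11-1a had 0 to 3, YPS163 had 0 to 40 and the mean had 2 to 19. Pairs ran from 7 to 10.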

Other observations

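On replicate 1 of M22 at 25 °C, RPS10A read 4.29, the highest value of the set on the 8 arrays. It is the one array with a value for this gene, which was not tested.

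Strains resembled each other most at 15 min, in the values and in the order of the genes. Across 135 genes, the Pearson correlation of fitted values between 2 strains had a median of 0.738 at 15 min. It ran from 0.610 to 0.835 over the pairs of strains, a description in which genes are not independent replicates. The Spearman rank correlation had a median of 0.70 there, from 0.60 to 0.81. At 60 min the Pearson median was 0.237 and the Spearman median 0.21, and at 120 min they were 0.257 and 0.16. The replicates of a strain themselves had a Pearson correlation of −0.18 to 0.56 over the set at 120 min.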
